A study of Mus musculus with 12 samples.

Results

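Liver holds a resident macrophage, the Kupffer cell, beside macrophages that come from the blood, and 10 genes that mark these cells were read by symbol among the 23420 genes counted in each of 2 tables. Of the 10, 4 mark resident Kupffer cells (Clec4f, Vsig4, Cd5l and Marco) and 6 mark macrophages in general or recruited ones (Csf1r, Cd68, Itgam, Ctss, Lyz2 and Trem2). All 10 were listed in both tables and all 10 passed the filter on low counts in each comparison.

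The study measured poly(A) RNA of liver from C57BL/6 mice in 4 groups of 3 libraries. All mice carried floxed alleles, and 3 of the groups also carried Alb-Cre, a recombinase whose albumin promoter works in hepatocytes and not in macrophages. The group p62F/F had floxed alleles of p62 (gene symbol Sqstm1) and no Cre, and the group p62Δhep had the same alleles with Alb-Cre. Mice of the Tsc1Δhep group had floxed Tsc1 alleles with Alb-Cre, and mice of the Tsc1/p62Δhep group had floxed alleles of both genes with Alb-Cre. Deleting Sqstm1 removes p62, an adaptor of selective autophagy, and deleting Tsc1 releases the growth kinase mTORC1. Diets low or high in fat are mentioned in the design text, but no label ties a diet, an age or a sex to a library or says whether a piece of liver was tumour. The counts of both Tsc1-deleted groups were deposited under a name that includes the word NORMAL, with no explanation of it in the labels. The labels do not say that the libraries came from separate animals, so p-values measure the spread between these libraries, which may be technical. No group with intact Tsc1 and Alb-Cre alone was analysed here, so an effect of p62 loss and one of the Cre transgene cannot be told apart in p62Δhep against p62F/F.

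Kupffer cells line the liver sinusoids, where they take up particles, bacteria and old blood cells from portal blood. They renew themselves in place, and when they are lost, monocytes from the blood enter the liver and take on Kupffer cell genes over time. Survival of both kinds depends on CSF1R, the receptor for the growth factors CSF1 and IL-34, and macrophages in injured or fatty liver often carry TREM2, a lipid-binding receptor that signals through TYROBP.

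Total counts were 15792048 to 33377247 per library. Sqstm1, the gene deleted in p62Δhep and Tsc1/p62Δhep, was at 327 to 358 CPM (a gene's counts relative to the library's total, scaled by TMM over all 12 libraries) in p62F/F and 12.7 to 20.4 CPM in p62Δhep. It was at 771 to 1166 CPM in Tsc1Δhep and 14.0 to 19.1 CPM in Tsc1/p62Δhep, so Sqstm1 was low in every library labelled as lacking p62. Tsc1 was at 26.8 to 41.0 CPM in the libraries with intact Tsc1, 5.27 to 10.6 CPM in Tsc1Δhep and 9.11 to 13.3 CPM in Tsc1/p62Δhep. Within each table, groups were compared with edgeR's quasi-likelihood test, adjusted over all genes tested by the Benjamini-Hochberg method with a threshold of 0.05. Log2 fold changes are given ± SE, means ± SD with n = 3 libraries, and levels set side by side across the tables were not tested.

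Tsc1Δhep library 1 stood apart from the rest in the 4 Kupffer members. It held 1 count of Clec4f, 0 of Vsig4, 5 of Cd5l and 2 of Marco, against 752, 347, 919 and 45 in Tsc1Δhep library 2. The Clec4f level of library 2 was 477-fold that of library 1, with a 95% counting interval of 85.3 to 18852, which covers counting error only. For Vsig4, libraries 2 and 3 were at least 73.3-fold and 159-fold higher, taking 3 counts as the limit that a count of 0 allows. Not every other listed Kupffer gene was low in library 1. Slc40a1 was at 137 CPM there against 77.4 and 120 CPM, and C1qb at 48.3 CPM against 58.8 and 34.3 CPM. Genes of other liver cells, chosen after their values were seen, were low in the same library. Clec4g, a lectin of sinusoidal endothelium, had 1 count there and 474 and 408 counts in libraries 2 and 3. Oit3, also endothelial, had 4 counts against 239 and 375. Other endothelial genes were less low: Stab2 had 245 counts against 696 and 1363, and Fcgr2b was at 14.4 CPM against 26.3 and 30.4 CPM. Lrat, which makes retinyl esters in stellate cells, had 2 counts against 87 and 157. Cyp2e1, a cytochrome of hepatocytes near the central vein, was at 4.51 CPM in that library and at 541 and 1204 CPM in the other Tsc1Δhep libraries. Other hepatocyte genes were mixed there. Pck1 was also lowest, at 299 CPM against 1662 and 886, but Fgb was highest, at 4435 CPM against 3734 and 2297. Alb was at 16572 CPM against 41028 and 13883. Of the general macrophage markers, Csf1r was lowest of its group in it, with 745 counts, or 31.1 CPM, below all 6 libraries with intact Tsc1 as well. Libraries 2 and 3 had 1.65-fold and 1.77-fold its Csf1r level. The other 5 general markers were not lowest in it, and Trem2, with 167 counts, was highest of its group there. The fold changes of the 4 Kupffer members against the Tsc1Δhep group are therefore given with and without this library.

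**Figure D1:**
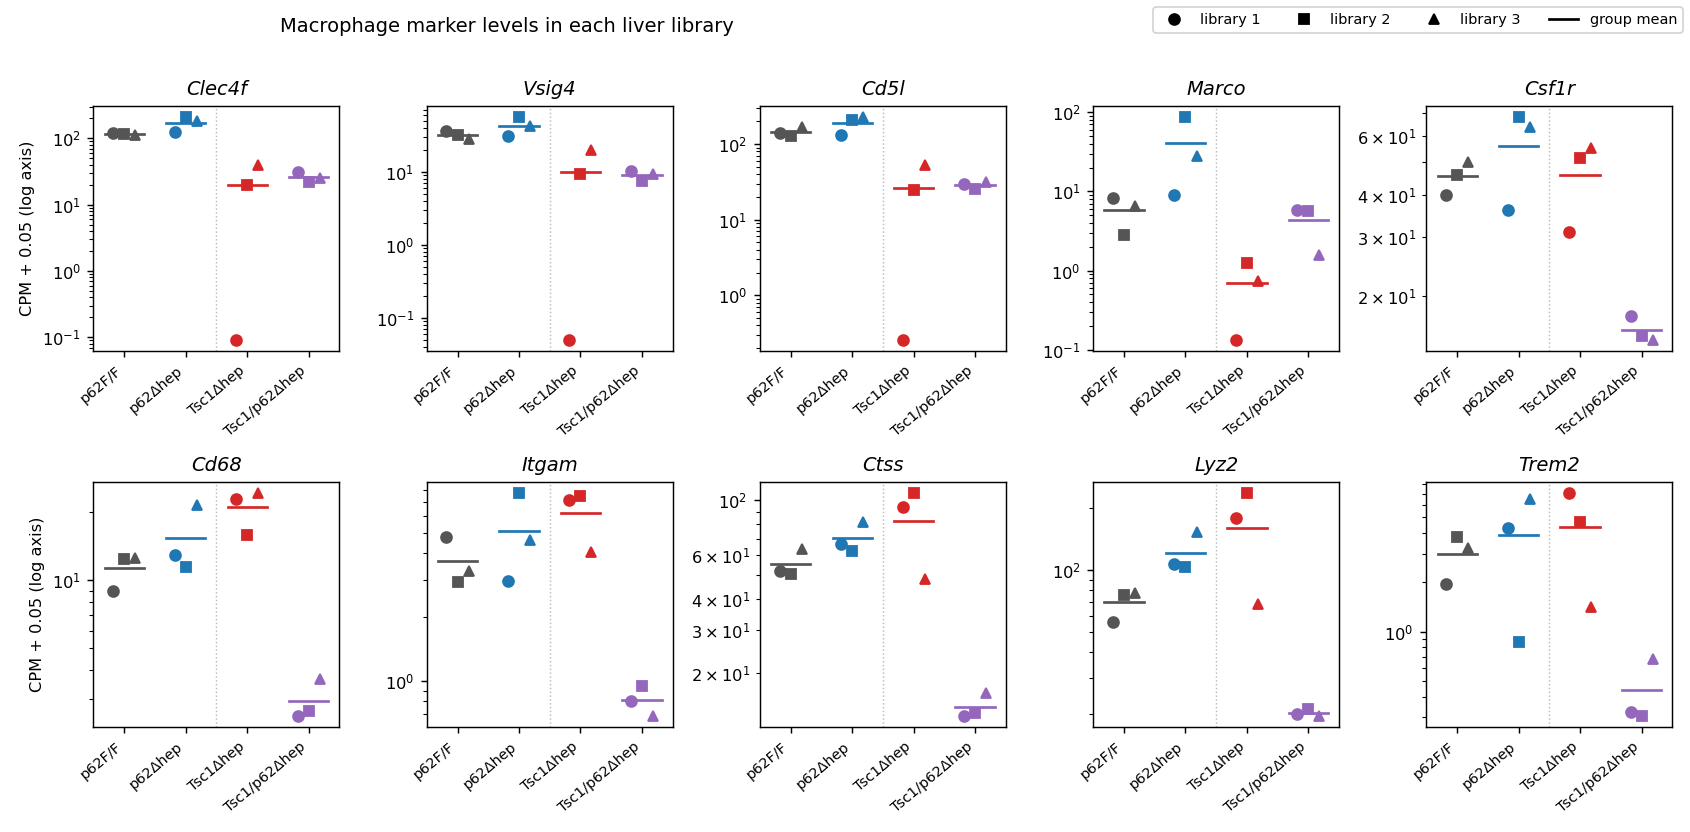
Level of each of the 10 macrophage markers (CPM + 0.05, log axis) in the 12 liver libraries, by group, with the shape giving the library number and the bar the group mean. Tsc1Δhep library 1 lies far below all other libraries for Clec4f, Vsig4 and Cd5l, and the 3 Tsc1/p62Δhep libraries lie below every other library for Csf1r, Cd68, Itgam, Ctss, Lyz2 and Trem2.

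The sequence before the transcription start is shown for 4 members, 1 Kupffer marker (Clec4f) and 3 of the 6 general markers (Cd68, Lyz2 and Trem2). All 6 were lower in Tsc1/p62Δhep than in Tsc1Δhep. Each run is the 250 bases before the start, 5′ to 3′ on the gene's own strand, from RefSeq on build GRCm38.p6. Capitals mark GAGGAA, the core bound by PU.1, the transcription factor that macrophages depend on, or its reverse complement TTCCTC. Positions are chr6:83656117-83656366 on the minus strand for Clec4f and chr11:69666171-69666420 on the minus strand for Cd68. They are chr10:117282273-117282522 on the minus strand for Lyz2 and chr17:48346151-48346400 on the plus strand for Trem2.
Clec4f: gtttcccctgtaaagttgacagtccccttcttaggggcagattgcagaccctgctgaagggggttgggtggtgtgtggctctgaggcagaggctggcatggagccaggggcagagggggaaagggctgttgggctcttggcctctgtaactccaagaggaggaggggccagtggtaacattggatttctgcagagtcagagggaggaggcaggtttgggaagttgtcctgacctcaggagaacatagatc
Cd68: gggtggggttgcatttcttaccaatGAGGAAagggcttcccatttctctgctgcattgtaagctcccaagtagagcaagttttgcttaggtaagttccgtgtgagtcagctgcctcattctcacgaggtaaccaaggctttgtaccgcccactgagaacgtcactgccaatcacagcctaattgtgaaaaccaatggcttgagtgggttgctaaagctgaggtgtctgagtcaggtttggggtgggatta
Lyz2: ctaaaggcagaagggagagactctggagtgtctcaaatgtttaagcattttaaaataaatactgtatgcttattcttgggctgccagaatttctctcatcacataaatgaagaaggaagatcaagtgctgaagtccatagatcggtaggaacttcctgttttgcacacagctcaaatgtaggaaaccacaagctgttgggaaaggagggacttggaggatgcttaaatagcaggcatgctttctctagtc
Trem2: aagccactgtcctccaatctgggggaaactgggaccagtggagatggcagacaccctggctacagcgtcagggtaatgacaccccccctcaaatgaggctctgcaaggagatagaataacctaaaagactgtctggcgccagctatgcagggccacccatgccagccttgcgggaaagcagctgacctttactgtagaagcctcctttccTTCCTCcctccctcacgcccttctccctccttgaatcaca
GAGGAA lay on either strand in 7 of the 9 members whose upstream window was read, and in 23.3% of 32817 such windows of mouse genes. In Cd68 it began 225 bases before the start, and in Trem2 its reverse complement lay 40 bases before it. CACGTG, the E-box bound by the lysosomal gene regulator TFEB among others, lay in 0 of the 9 and in 6.02% of all windows. A match of letters is a description of the sequence and no evidence of binding.

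In p62F/F liver the Kupffer markers Cd5l and Clec4f were among the 4 most abundant of the 10 per length of exon, and Marco was among the 3 lowest. Cd5l was at 71.7 ± 9.55 CPM per kb of exon (SD, n = 3), Lyz2 at 53.1 ± 9.08, Clec4f at 47.4 ± 1.05 and Ctss at 40.6 ± 5.46, and Lyz2 and Clec4f did not differ beyond the spread of Lyz2. Vsig4 followed at 22.2 ± 3.03 CPM per kb, then Csf1r at 9.29 ± 1.03 and Cd68 at 8.96 ± 1.62, which did not differ beyond their spread. Marco at 3.00 ± 1.43 and Trem2 at 2.58 ± 0.820 CPM per kb did not differ beyond their spread either, and Itgam was lowest at 0.735 ± 0.200. In Tsc1/p62Δhep the order was led by Lyz2 at 15.4 ± 0.663 CPM per kb, Cd5l at 14.2 ± 1.54, Ctss at 10.7 ± 1.29 and Clec4f at 10.5 ± 1.79. Lyz2 and Cd5l did not differ there beyond their spread, nor did Ctss and Clec4f. Trem2 at 0.339 ± 0.186 and Itgam at 0.154 ± 0.0263 CPM per kb were again the lowest.

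The first comparison asked whether deletion of p62 in hepatocytes of otherwise intact liver went with a change in macrophage markers. None of the 10 markers passed the threshold in p62Δhep against p62F/F. All 10 log2 fold changes were above 0, with a median of 0.43 against 0.00 over all 12567 genes tested. Clec4f, Marco and Lyz2 were higher in each p62Δhep library than in every p62F/F library, which was true of 6.60% of all genes. No marker was lower in each p62Δhep library than in every p62F/F library, against 6.38% of all genes. Across all genes 0.0159% passed the threshold in either direction, 1020 genes had an unadjusted p below 0.05, and 3 of the 10 markers were among them. With DESeq2, 1 marker passed, Lyz2, at an adjusted p of 0.0376, and with limma 0 did.

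Clec4f, a lectin that in mouse is found on Kupffer cells, was at 119, 118 and 114 CPM in p62F/F libraries 1 to 3 and at 124, 209 and 181 CPM in p62Δhep. The lowest p62Δhep library lay just above the highest control. Its log2 fold change was 0.54 ± 0.20, with an adjusted p of 0.560 by edgeR. Vsig4, the complement receptor CRIg that captures bacteria from blood, stood at 36.2, 31.5 and 27.5 CPM in the controls and 31.1, 55.7 and 41.5 CPM in p62Δhep. Cd5l, a secreted scavenger protein also called AIM, stood at 141, 129 and 167 CPM in the controls and 133, 207 and 227 CPM in p62Δhep. For both genes p62Δhep library 1 lay within the control range, libraries 2 and 3 lay above it, and the groups overlapped. The log2 fold changes were 0.42 ± 0.21 and 0.36 ± 0.22, with adjusted p-values of 0.663 and 0.712 by edgeR.

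Marco, a scavenger receptor of macrophages that take up particles, ranged widely in p62Δhep. It was at 8.12, 2.74 and 6.45 CPM in p62F/F and at 8.85, 86.7 and 28.1 CPM in p62Δhep. The groups did not overlap, but the lowest p62Δhep library lay close to the highest control, and libraries 2 and 3 lay far above it. The log2 fold change was 2.84 ± 0.80 with an adjusted p of 0.428 by edgeR, and it was 1.68 without p62Δhep library 2. Cd163, the haemoglobin scavenger receptor, also had its highest value in that library, at 18.4 CPM against 3.23 and 6.04 in the other p62Δhep libraries and 0.883 to 2.37 in the controls. Its log2 fold change was 2.52, with an adjusted p of 0.400 by edgeR.

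Lyz2, which encodes lysozyme of macrophages and neutrophils, had the smallest p of the 10 in this comparison. It was at 56.1, 75.9 and 77.6 CPM in p62F/F and at 107, 104 and 152 CPM in p62Δhep, so each p62Δhep library lay above each control. The log2 fold change was 0.78 ± 0.20, with an adjusted p of 0.386 by edgeR. Csf1r stood at 40.1, 46.0 and 50.1 CPM in the controls and 36.2, 68.1 and 63.6 CPM in p62Δhep. Cd68, a lysosomal membrane protein, stood at 8.91, 12.4 and 12.5 CPM and at 12.9, 11.4 and 21.5 CPM. Csf1r and Cd68 overlapped between the groups, with log2 fold changes of 0.29 ± 0.24 and 0.43 ± 0.27.

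Itgam, the CD11b subunit of an integrin of monocytes, macrophages and neutrophils, was at 4.73, 2.87 and 3.25 CPM in p62F/F and 2.92, 7.64 and 4.56 CPM in p62Δhep. Ctss, the lysosomal protease cathepsin S, was at 51.7, 50.1 and 63.7 CPM and at 66.5, 62.3 and 81.5 CPM. Both overlapped between the groups, with log2 fold changes of 0.47 ± 0.38 and 0.34 ± 0.15. Listed neutrophil genes, 9 in number, summed to 127, 10.9 and 34.5 CPM in p62F/F and to 9.84, 95.0 and 49.2 CPM in p62Δhep. That is the library order of Itgam in each group, and the part of neutrophils in its level was not tested. Trem2 was at 1.92, 3.74 and 3.20 CPM in p62F/F and at 4.27, 0.814 and 6.42 CPM in p62Δhep. Library 2 of p62Δhep, highest for Marco, was the lowest of the 6 for Trem2, with libraries 1 and 3 above all controls. The log2 fold change of Trem2 was 0.38 ± 0.62, and it was -0.22 without p62Δhep library 3. Gpnmb and Mmp12, genes of lipid-laden macrophages chosen after their values were seen, were likewise lowest in p62Δhep library 2, at 26.7, 0.501 and 24.7 CPM and at 20.1, 0.188 and 22.3 CPM. In p62F/F they were at 1.07, 5.61 and 6.56 CPM and at 1.24, 9.35 and 5.90 CPM. There, library 1 was the lowest control for both and for Trem2, and the highest control for Marco. Other listed genes of recruited or lipid-associated macrophages did not share this order. Spp1, Cd9 and Fabp5 were highest in p62Δhep library 2, at 460, 65.3 and 82.5 CPM, and were not lowest in p62F/F library 1.

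In the second comparison, liver lacking both Tsc1 and p62 in hepatocytes was set against liver lacking Tsc1 alone. All 6 general and recruited macrophage markers fell in Tsc1/p62Δhep, by 2.89-fold for Csf1r to 11.03-fold for Trem2, and none of the 4 Kupffer markers passed the threshold. Trem2 met the filter on low counts through Tsc1Δhep, so only a fall could be called in it. The 6 had a median log2 fold change of -2.92, the 4 one of 0.27, and all 12620 genes tested one of -0.05. Without Tsc1Δhep library 1 the medians were -2.83 for the 6 and -0.30 for the 4, a change of sign for the Kupffer markers, and 1 of the 4, Marco, passed as higher. Over all genes 24.2% passed, 14.9% as lower and 9.25% as higher, and the groups did not overlap with lower values for 23.3%. With library totals in place of TMM the median of all genes was -0.40, with 3337 lower and 576 higher genes against 1886 and 1167, and the 6 still passed. In a bulk sample of liver, fewer macrophages and less of a transcript per macrophage cannot be told apart.

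Csf1r was at 31.1, 51.4 and 55.1 CPM in Tsc1Δhep libraries 1 to 3 and at 17.5, 15.2 and 14.8 CPM in Tsc1/p62Δhep. Each Tsc1/p62Δhep library lay below each Tsc1Δhep library and, across the tables, below all 6 libraries with intact Tsc1. The log2 fold change was -1.53 ± 0.26, with an adjusted p of 0.00698 by edgeR, and Csf1r had the smallest fall of the 6. Cd68 was at 22.9, 15.8 and 24.1 CPM in Tsc1Δhep and 2.47, 2.61 and 3.61 CPM in Tsc1/p62Δhep. The groups were far apart, and Cd68 had the smallest p of the 10, with a log2 fold change of -2.85 ± 0.30 and an adjusted p of 0.00141 by edgeR.

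In Tsc1Δhep Ctss was at 93.5, 107 and 47.8 CPM, against 13.4, 13.8 and 16.6 CPM in Tsc1/p62Δhep. Lyz2 was at 179, 236 and 68.4 CPM and then 19.95, 21.3 and 19.6 CPM. In both genes Tsc1Δhep library 3 was the lowest of its group and lay near the p62F/F libraries, within their range for Lyz2 and just below it for Ctss, while Tsc1/p62Δhep lay far below. Ctss fell by 2.51 ± 0.33 on the log2 scale, with an adjusted p of 0.00292 by edgeR. Lyz2 fell by 2.99 ± 0.44 on the log2 scale, or 7.95-fold, with an adjusted p of 0.00433. A close paralogue, Lyz1, is in the tables as a gene of its own, and reads that the authors' counting may have split between the pair make the Lyz2 level uncertain.

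In Tsc1Δhep Itgam was at 7.10, 7.44 and 4.02 CPM, against 0.754, 0.892 and 0.633 CPM in Tsc1/p62Δhep, the latter from 11, 14 and 10 counts. It fell by 3.02 ± 0.39 on the log2 scale, or 8.11-fold, with an adjusted p of 0.00287 by edgeR and no overlap between the groups. In Tsc1/p62Δhep library 3 Itgam lay just under the limit of the filter on low counts, so it too relied on Tsc1Δhep to meet it. Trem2 was at 6.97, 4.63 and 1.37 CPM in Tsc1Δhep and 0.274, 0.255 and 0.633 CPM in Tsc1/p62Δhep, the latter from 4, 4 and 10 counts. It met the filter on low counts through its Tsc1Δhep levels, so only a fall could be called in it. The groups did not overlap, but Tsc1Δhep library 3 was closer to the highest Tsc1/p62Δhep library than to library 1 of its own group. The fall of 3.46 ± 0.71 on the log2 scale had an adjusted p of 0.0132 by edgeR. Without Tsc1/p62Δhep library 1 the adjusted p was 0.0694, and without library 2 it was 0.0663.

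The 4 Kupffer markers took another course. In Tsc1Δhep Clec4f was at 0.0418, 19.9 and 39.8 CPM, and in Tsc1/p62Δhep it was at 30.7, 21.9 and 25.1 CPM. Vsig4 was at 0, 9.18 and 19.96 CPM and at 10.3, 7.45 and 9.18 CPM, where the count of 0 allows a level of up to 0.125 CPM. Cd5l was at 0.209, 24.3 and 53.1 CPM and at 30.0, 25.4 and 31.4 CPM. For all 3 genes Tsc1Δhep library 1 was near 0, library 3 was highest, and the Tsc1/p62Δhep libraries lay between libraries 2 and 3 or, for Vsig4, at or below library 2 in part, so the groups overlapped. The log2 fold changes were 0.38 ± 1.21, -0.11 ± 1.21 and 0.17 ± 1.15, with adjusted p-values of 0.833, 0.956 and 0.927 by edgeR. Without Tsc1Δhep library 1 they were -0.19, -0.69 and -0.41, with adjusted p-values of 0.698, 0.205 and 0.405. The large SE of each value means that changes of the size seen in Csf1r were not detectable in these genes with all libraries in the fit.

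In Tsc1Δhep Marco was at 0.0835, 1.19 and 0.685 CPM, against 5.83, 5.60 and 1.52 CPM in Tsc1/p62Δhep. Each Tsc1/p62Δhep library lay above each Tsc1Δhep library, which was true of 22.5% of all genes. The log2 fold change was 2.68 ± 0.84 with an adjusted p of 0.0529 by edgeR, which misses the threshold, and without Tsc1Δhep library 1 it was 2.18 with an adjusted p of 0.0496. Marco was thus the 1 member whose separated groups went the opposite way to the 6 general markers.

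**Figure D2:**
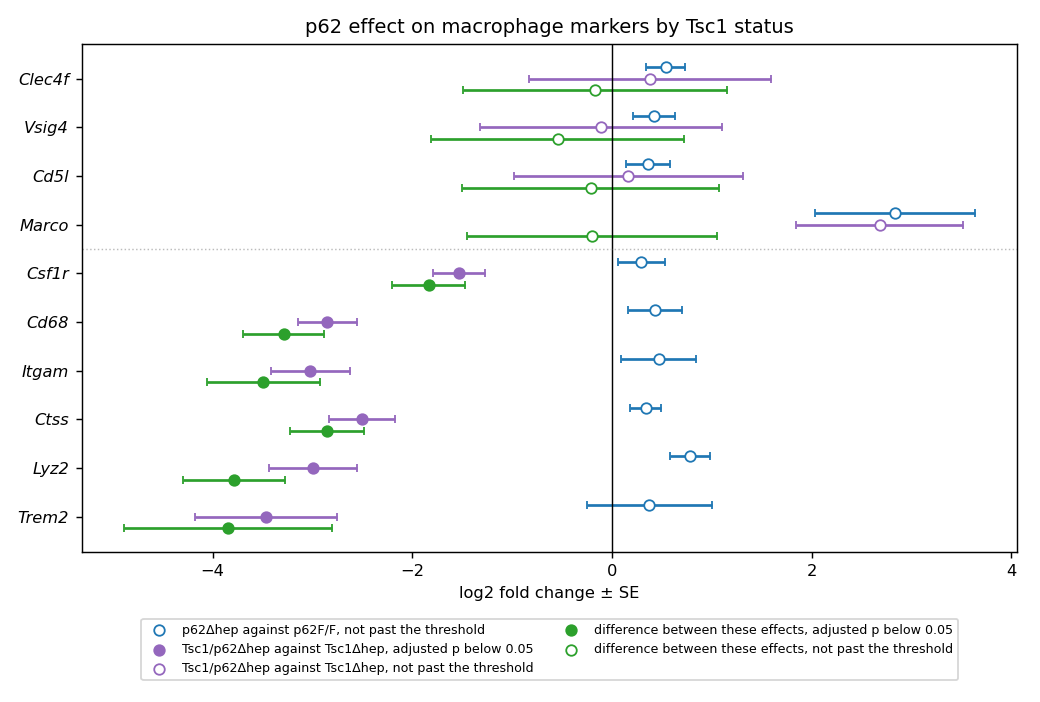
Log2 fold change ± SE of each marker for p62Δhep against p62F/F, for Tsc1/p62Δhep against Tsc1Δhep, and for the difference between these effects, with filled points where the adjusted p was below 0.05. The 6 markers from Csf1r to Trem2 have filled points between -1.53 and -3.84 in the Tsc1-deleted comparison and in the difference, and no point of the 4 Kupffer markers is filled.

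The effect of p62 loss on the 6 general markers differed between the Tsc1 backgrounds. In 1 fit of all 12 libraries, whose contrast is free of any scaling shared by a whole table, all 6 passed as lower and none of the 10 as higher, against 9.32% and 6.76% of 13231 genes tested. The difference on the log2 scale was -1.84 ± 0.37 for Csf1r, -3.29 ± 0.41 for Cd68 and -3.49 ± 0.57 for Itgam, with adjusted p-values of 0.00818, 0.000847 and 0.00314 by edgeR. For the remaining markers it was -2.85 ± 0.37 for Ctss, -3.78 ± 0.51 for Lyz2 and -3.84 ± 1.04 for Trem2, with adjusted p-values of 0.00110, 0.00122 and 0.0284 by edgeR. The Trem2 call was lost in 10 of 19 alternative fits. Among the Kupffer markers none passed, and the differences were -0.17 ± 1.32 for Clec4f, -0.54 ± 1.27 for Vsig4, -0.21 ± 1.29 for Cd5l and -0.20 ± 1.25 for Marco. Without Tsc1Δhep library 1 these 4 were -0.75, -1.12, -0.79 and -0.69, and none passed.

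Set side by side across the tables, the Tsc1-deleted livers had lower Kupffer markers than the livers with intact Tsc1, with or without p62. Clec4f was at 114 to 209 CPM in the 6 livers with intact Tsc1 and at most 39.8 CPM in the 6 without it. Cd5l was at 129 to 227 CPM in the former and at most 53.1 CPM in the latter, and Vsig4 at 27.5 to 55.7 CPM and at most 19.96 CPM. For these 3 genes the ranges did not overlap, a difference between tables that was not tested. The share of all genes whose ranges part in this way was not counted. The split can therefore not be read as particular to these markers. Rn45s, the precursor of ribosomal RNA, split the same way, with 1.91% to 3.496% of counts with intact Tsc1 and 0.0751% to 1.21% without it. The 2 kinds of sequencer are not assigned to libraries in the labels. The part of either in the difference between tables was not tested. Marco overlapped, at 2.74 to 86.7 CPM with intact Tsc1 and up to 5.83 CPM without it. The general markers split by p62 within the Tsc1-deleted livers. Lyz2, for example, was at 68.4 to 236 CPM in Tsc1Δhep, a range that includes all 6 livers with intact Tsc1 apart from p62F/F library 1, and at 19.6 to 21.3 CPM in Tsc1/p62Δhep.

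Relative to Csf1r in the same library, Clec4f, Vsig4, Cd5l and Marco were lower in each Tsc1Δhep library than in each Tsc1/p62Δhep library. Of the other general markers only Cd68 separated these groups, with higher ratios in Tsc1Δhep. Those of Lyz2, Ctss, Itgam and Trem2 overlapped. Csf1r itself fell in Tsc1/p62Δhep while the Clec4f level overlapped, so the fall of Csf1r enters these ratios. The log2 ratio of Clec4f to Csf1r (CPM + 0.5 in each) was 1.37 ± 0.19 in p62F/F and 1.62 ± 0.13 in p62Δhep (SD, n = 3). In Tsc1Δhep it was -5.87, -1.35 and -0.46 in libraries 1 to 3, and in Tsc1/p62Δhep it was 0.68 ± 0.15. Each Tsc1Δhep library thus lay below each Tsc1/p62Δhep library, and these below every library with intact Tsc1. The Lyz2 to Csf1r count ratio was 1.40 to 1.65 in p62F/F, 1.52 to 2.96 in p62Δhep and 1.14 to 1.40 in Tsc1/p62Δhep. In Tsc1Δhep it was 5.75 and 4.59 in libraries 1 and 2 and 1.24 in library 3, so library 3 did not share the high ratio of its group. Trem2 to Clec4f had a log2 ratio of 3.79, -1.99 and -4.43 in Tsc1Δhep libraries 1 to 3 and of -5.63 to -4.81 in p62F/F. In Tsc1Δhep library 1, with its 1 count of Clec4f, these values rest on the added 0.5. With 1 added in its place, Clec4f to Csf1r was -4.95 and Trem2 to Clec4f was 2.94 there, and the count ratios were 0.00134 and 167. All these ratios are given as a description, with no test.

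**Figure D3:**
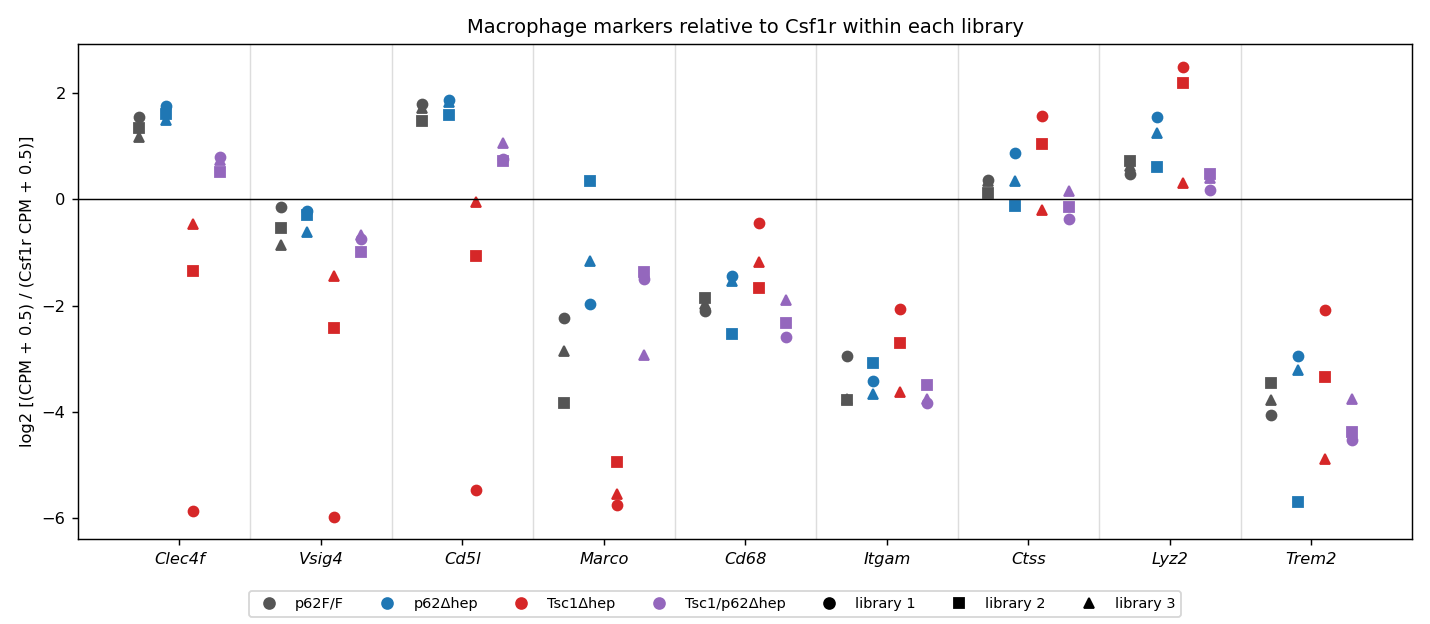
Log2 ratio of each marker to Csf1r within the same library, on the CPM + 0.5 scale, with colour for the group and shape for the library number. For Clec4f the Tsc1Δhep libraries lie at -5.87 to -0.46, below the other 3 groups, whereas for Lyz2 Tsc1Δhep libraries 1 and 2 lie above all other libraries.

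Across the 12 libraries Clec4f, Vsig4 and Cd5l followed each other closely, and the gene most like each of them was Gpr182, which encodes a chemokine-binding receptor of endothelium. Its Pearson r of log2(CPM + 1) over 12 libraries was 0.982 with Clec4f, 0.980 with Vsig4 and 0.986 with Cd5l, and 0.966, 0.953 and 0.971 after the group means were removed. Over the 11 libraries without Tsc1Δhep library 1 it was 0.946, 0.943 and 0.958. Ctss and Lyz2 were like Tyrobp, with r of 0.988 and 0.979, and 0.957 and 0.900 after the group means were removed. Csf1r was most like Nckap1l, a haematopoietic actin regulator (r of 0.973), Cd68 like Slc11a1, a metal transporter of macrophage phagosomes (0.951), and Itgam like Clec4a2, a myeloid lectin (0.955). Without the group means the Cd68 value fell to 0.360. With group means removed, the general markers did not all follow each other. Ctss, Lyz2 and Trem2 had r of 0.717 to 0.923 among themselves, but Cd68 had -0.481 with Itgam. Csf1r had -0.479 to 0.214 with the other general markers, and 0.734, 0.724 and 0.732 with Clec4f, Vsig4 and Cd5l. Trem2 was most like Ifi35, an interferon-induced gene (0.941), and Mmp12 was the third gene in its order (0.919). Marco had Rbm15b as its nearest gene (0.941). The libraries share their group structure and Tsc1Δhep library 1, and these values are a description with no test.

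Genes around the members were read from lists of other markers. Of 10 other Kupffer markers, 3 passed as lower, 2 as higher and 5 did not pass in Tsc1/p62Δhep against Tsc1Δhep, with a median log2 fold change of 0.39, or -0.01 without Tsc1Δhep library 1. The 3 that fell were the complement genes C1qa, C1qb and C1qc, which macrophages of many tissues make. C1qb was at 48.3, 58.8 and 34.3 CPM in Tsc1Δhep and 16.5, 10.7 and 13.7 CPM in Tsc1/p62Δhep, a log2 fold change of -1.79 ± 0.28 with an adjusted p of 0.00529 by edgeR. C1qa changed by -1.41 ± 0.23 (adjusted p of 0.00598). Those that rose were Fcna, which encodes ficolin A, a lectin that activates complement, and Cd163. Fcna was at 0.877, 4.10 and 6.99 CPM in Tsc1Δhep and 26.2, 17.0 and 22.5 CPM in Tsc1/p62Δhep, with a log2 fold change of 2.46 ± 0.63 and an adjusted p of 0.0282 by edgeR. Its level in p62F/F was 31.6 to 34.1 CPM. For Cd163 the log2 fold change was 2.33 ± 0.68 with an adjusted p of 0.0441. Without Tsc1Δhep library 1 the changes were 2.00 for Fcna and 1.84 for Cd163, with adjusted p-values of 0.00753 and 0.0156. Timd4, a receptor for dying cells on embryo-derived Kupffer cells, did not pass and had 0 counts in Tsc1Δhep library 1, with 0.768 and 3.24 CPM in libraries 2 and 3 and 2.97 to 3.77 CPM in Tsc1/p62Δhep.

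Of 18 other general macrophage and myeloid genes, 14 passed as lower and none as higher, with a median log2 fold change of -1.67. The smallest p belonged to Cybb, the catalytic subunit of the phagocyte oxidase, at 109, 231 and 154 CPM in Tsc1Δhep and 8.78, 8.85 and 9.05 CPM in Tsc1/p62Δhep. Its log2 fold change was -4.21 ± 0.32, with an adjusted p of 0.000553 by edgeR. Sirpa, the receptor through which CD47 restrains phagocytosis, changed by -3.11 ± 0.25 with an adjusted p of 0.000581. Tyrobp, the adaptor that carries the TREM2 signal, was at 21.8, 25.0 and 9.78 CPM and at 2.40, 2.29 and 3.67 CPM. It fell by 2.76 ± 0.42 on the log2 scale, with an adjusted p of 0.00494 by edgeR, so that the receptor and its adaptor fell together.

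Among 17 genes of recruited or lipid-associated macrophages, 16 were tested and 15 passed as lower, with a median log2 fold change of -4.16. Some of the 15 were near the floor: Ly6c2, Mmp12, S100a4 and Ms4a7 were at most 0.255, 0.506, 0.380 and 0.411 CPM in Tsc1/p62Δhep. They met the filter on low counts through Tsc1Δhep, as did Gpnmb and Itgax, so only a fall could be called in them. Cx3cr1, the receptor for fractalkine on monocytes and macrophages, was at 10.4, 17.2 and 10.4 CPM in Tsc1Δhep and 1.03, 0.573 and 0.760 CPM in Tsc1/p62Δhep. Its log2 fold change was -4.01 ± 0.38, with an adjusted p of 0.00114 by edgeR. Anxa2, a membrane-binding protein that other cell types also make, changed by -4.14 ± 0.41 (adjusted p of 0.00119). Within Tsc1Δhep, Gpnmb and Spp1 were uneven and highest in library 1, at 229, 2.51 and 19.5 CPM for Gpnmb and 4996, 2160 and 705 CPM for Spp1, which encodes osteopontin and is also made by bile duct cells. The 17 genes summed to 7155, 2944 and 1308 CPM in Tsc1Δhep libraries 1 to 3 and to 205 to 230 CPM in Tsc1/p62Δhep, with Spp1 the largest part in each Tsc1Δhep library.

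**Figure D4:**
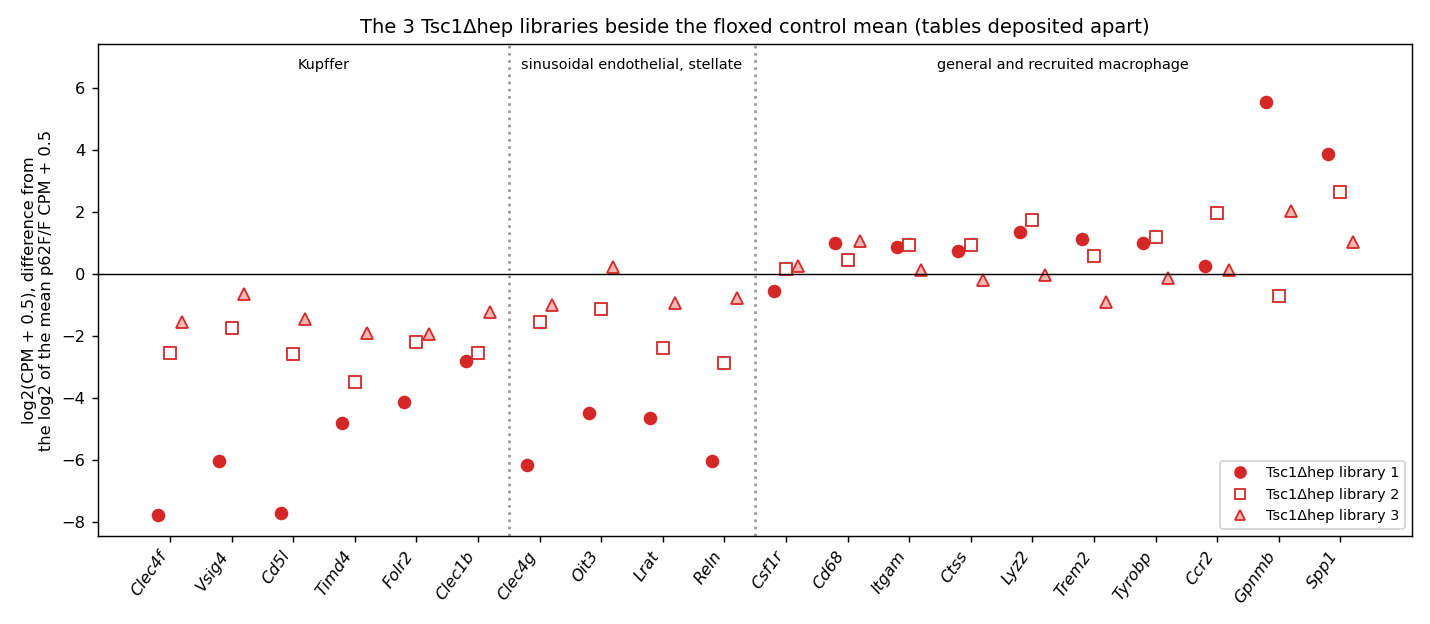
Each Tsc1Δhep library as a difference from the p62F/F mean on the log2(CPM + 0.5) scale, for Kupffer markers, sinusoidal endothelial and stellate markers, and general and recruited macrophage markers. Library 1 lies far below 0 for Clec4f, Vsig4 and Cd5l and above 0 for Trem2, Gpnmb and Spp1. The groups come from tables deposited apart and were not tested against each other.

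Ligands and receptors of macrophage growth and entry were lower in part. Of 12 listed, 9 were tested and 6 passed as lower, with a median log2 fold change of -2.34. Ccl2, the chemokine that draws monocytes out of the blood, was at 23.3, 41.6 and 1.78 CPM in Tsc1Δhep, against 0.274, 0.446 and 0.443 CPM in Tsc1/p62Δhep. It fell by 5.82 ± 1.12 on the log2 scale, with an adjusted p of 0.0104 by edgeR, and Tsc1Δhep library 3 lay within the p62F/F range of 1.18 to 3.37 CPM. Its receptor Ccr2 was at 9.39, 31.8 and 8.68 CPM and at 0.754, 0.828 and 0.760 CPM, and fell by 4.40 ± 0.61 with an adjusted p of 0.00354. Cx3cl1, the fractalkine ligand, was at 5.34, 16.4 and 16.7 CPM and at 0.480, 0.255 and 1.08 CPM, and fell by 4.39 ± 0.65 with an adjusted p of 0.00457. Ccl2 and Cx3cl1 met the filter on low counts through Tsc1Δhep, so only a fall could be called in them. Of the 2 ligands of CSF1R, Il34 fell by 1.94 ± 0.42 on the log2 scale (adjusted p of 0.0164), whereas Csf1, at 9.73, 17.6 and 13.1 CPM against 6.51, 8.34 and 6.65 CPM, did not pass (log2 fold change of -0.91 ± 0.29, adjusted p of 0.0557). Without Tsc1Δhep library 1 all 9 tested passed as lower, Csf1 at an adjusted p of 0.0223. In p62Δhep against p62F/F none of the 9 tested passed.

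Of 10 transcription factors of macrophages, 9 were tested, 1 passed as lower, 2 as higher and 6 did not pass. Spi1, which encodes PU.1 and is listed under the older symbol Sfpi1, was at 2.92, 5.90 and 4.25 CPM in Tsc1Δhep and 1.51, 1.15 and 1.14 CPM in Tsc1/p62Δhep, a log2 fold change of -1.78 ± 0.39 with an adjusted p of 0.0158 by edgeR. Cebpb, which hepatocytes also make, rose by 1.46 ± 0.33 on the log2 scale, with an adjusted p of 0.0183 by edgeR.

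Markers of other cells moved with these results in part. For neutrophils, S100a8 and S100a9 passed as lower among 3 genes tested, and the 9 genes in the table summed to 4.55 to 11.7 CPM in Tsc1Δhep and 0.960 to 1.71 CPM in Tsc1/p62Δhep. S100a8 and S100a9 were at most 0.190 and 0.506 CPM in Tsc1/p62Δhep and met the filter on low counts through Tsc1Δhep, so only a fall could be called in them. When Tsc1Δhep library 1 was left out, S100a8 passed at -2.39, S100a9 did not (-1.81, adjusted p of 0.0743 by edgeR) and Csf3r, the receptor of the neutrophil growth factor G-CSF, passed as lower with an adjusted p of 0.0116. The granule genes Camp, Ngp, Elane and Mpo, which define maturing neutrophils, were between 0 and 0.183 CPM in Tsc1Δhep. Among 10 endothelial genes 1 passed, Pecam1, as lower, and the list summed to 60.2, 139 and 258 CPM in Tsc1Δhep and 149.5 to 197 CPM in Tsc1/p62Δhep. With Tsc1Δhep library 1 left out, 3 endothelial genes passed as lower, Pecam1 (-1.27), the junction protein gene Cdh5 (-1.08) and Lyve1 (-2.66), a hyaluronan receptor of sinusoidal endothelium. Of 10 stellate cell genes, Acta2, Col1a1 and Col3a1 passed as lower, Ecm1 as higher and 6 did not pass. Of 6 bile duct genes, 2 passed as lower, Tspan8 and Sox9, and the list summed to 29.6 to 103 CPM against 9.74 to 16.3 CPM. For hepatocytes 6 of 10 passed as higher, led by Serpina1a and Cps1, with sums of 29276 to 61786 CPM in Tsc1Δhep and 85196 to 117979 CPM in Tsc1/p62Δhep. The part of these cells in the fall of the macrophage markers was not tested. None of the tested dendritic cell (2), T and NK cell (1) or B and plasma cell (3) genes passed, and these lists summed to at most 18.3, 8.10 and 20.1 CPM in any library of the comparison. Without Tsc1Δhep library 1, 7 dendritic cell genes could be tested and 4 passed as lower, Flt3, Siglech, Cd209a and Ccr7. These 4 were at most 0.443 CPM in Tsc1/p62Δhep and met the filter on low counts through Tsc1Δhep, so only a fall could be called in them.

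**Figure D5:**
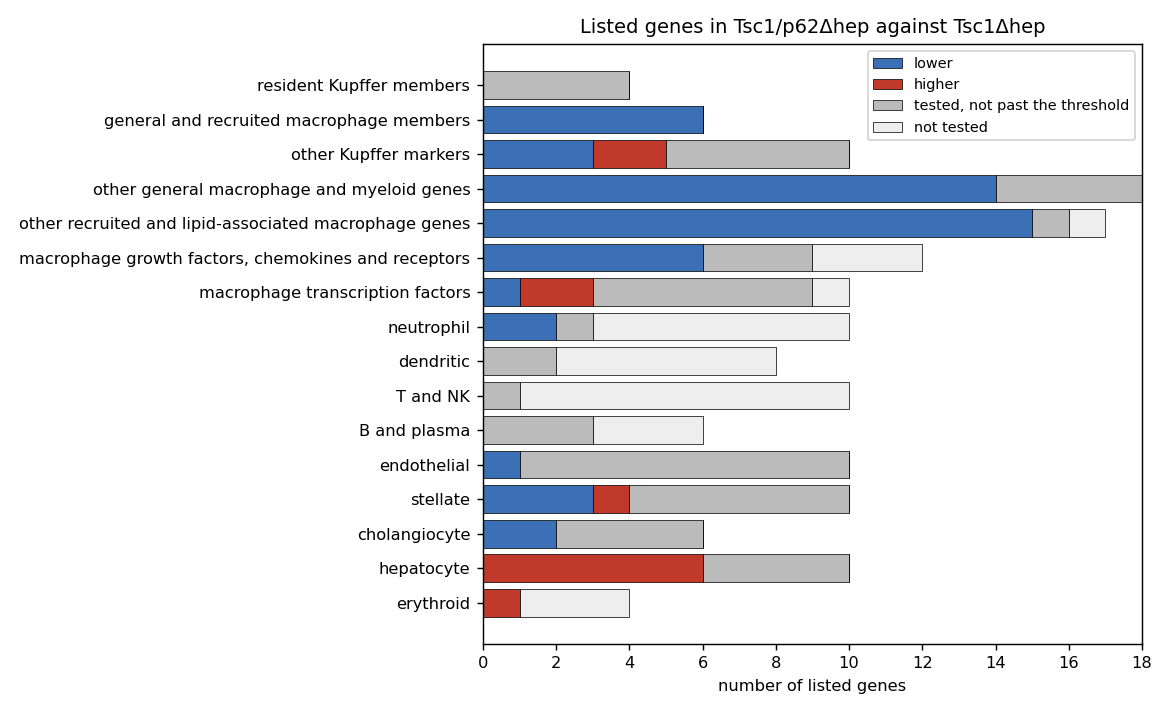
Number of genes of each marker list that passed as lower, passed as higher, did not pass or were not tested in Tsc1/p62Δhep against Tsc1Δhep. The general macrophage members (6 of 6) and the other general and recruited lists (14 of 18 and 15 of 17) are mostly lower, the 4 Kupffer members did not pass, and the hepatocyte list has 6 genes higher.

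In the difference between the Tsc1 backgrounds the lists divided likewise. Of 18 other general macrophage genes 13 passed as lower, and of 17 recruited or lipid-associated genes 13 did, with median log2 differences of -2.24 and -4.11 against -0.07 over all genes. Cybb had a difference of -4.23 and an adjusted p of 0.000189 by edgeR. Of the 10 other Kupffer markers 3 passed as lower, again the C1q genes, and 7 did not pass, with a median of -0.02. In p62Δhep against p62F/F no gene of any list passed with edgeR, and the medians of the other Kupffer, general and recruited lists were 0.26, 0.21 and -0.37.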

How the data were processed

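RNA was measured in 12 liver libraries, 4 groups of 3, grouped and numbered by their titles. Per the labels' protocols, poly(A) RNA from Trizol extracts of frozen liver went into directional libraries, sequenced on 2 kinds of Illumina instrument. The authors deposited 2 tables of whole-number counts per gene symbol, 1 for each pair of groups, with totals that differ between libraries. The human build hg19 appears in the submitters' processing notes, although the symbols are those of mouse. The aligner, counter, annotation and use of strand were not given in the sources used here.

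Members and lists were chosen with earlier results of these data known. Within each table, genes were kept with filterByExpr (10 or more counts, scaled to the median library, in 3 libraries and 15 in total), scaled by TMM and tested with edgeR 4.0.16 in R 4.3.3 (quasi-likelihood test, Benjamini-Hochberg adjustment over all genes, threshold 0.05). A gene high in 1 group alone could meet the filter, as Trem2, Ccl2, Cx3cl1, Ly6c2, Gpnmb, Itgax, Mmp12, S100a4 and Ms4a7, among others, did through Tsc1Δhep. The difference between Tsc1 backgrounds was a contrast in 1 fit of all 12 libraries. Levels are CPM with TMM factors over all 12 libraries, and CPM per kb used the union of exons of the GENCODE mouse annotation. The test was tried on simulated counts. No pair of replicates agreed within sampling noise (chi-square per gene of 36.2 to 325 over genes with at least 20 counts). At 0 counts, 3 counts were taken as the limit, and intervals and limits cover counting error only.

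The rule for named genes took all 10 members and, in each list, the 2 with the smallest p in each direction among those that passed, or the 1 with the smallest p. It also took Csf1, Il34, Ccl2, Ccr2, Cx3cl1, Cx3cr1 and Tyrobp and, for likeness, the 3 nearest genes of each member. Not all of these are named in the text, 1 gene is not reported here, and genes named outside the rule were chosen after their values were seen. Alternatives were DESeq2 1.42.0, limma 3.58.1 on log2(CPM + 1), other size factors, no filter, a replicate block, all 12 libraries in 1 fit, and leaving out libraries. Upstream sequences came from a RefSeq table of GRCm38.p6, matched by symbol.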

Additional observations from a re-analysis of the deposited data

Results flagged for a closer look

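The effect of p62 loss differed between the Tsc1 backgrounds for 6 of the 10 markers, by the test of that difference itself in 1 fit of all 12 libraries with edgeR. On the log2 scale, the effect with Tsc1 deleted minus the effect with Tsc1 intact was -1.84 for Csf1r, -3.29 for Cd68, -3.49 for Itgam, -2.85 for Ctss, -3.78 for Lyz2 and -3.84 for Trem2. The effects that enter these differences were above 0 in the Tsc1-intact table, where none passed, and below 0 in the Tsc1-deleted table, where all 6 passed. Since p62F/F alone lacked the Cre transgene, an effect of Cre enters this contrast and cannot be told apart from that of p62.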

How the results depend on the processing

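Csf1r, Cd68, Itgam, Ctss and Lyz2 kept direction and call in all 14 alternatives for Tsc1/p62Δhep against Tsc1Δhep and in all 19 for the difference between backgrounds, where adjusted p-values reached at most 0.0451 and 0.0335. Trem2 lost its call in 3 of 14 and 10 of 19, with log2 values of -3.25 with the replicate block and -3.26 and -3.23 without Tsc1/p62Δhep libraries 1 and 2. For its difference the lost calls had values of -1.88 with limma, -3.37 with the replicate block and -4.03 to -3.24 without single libraries. Marco in Tsc1/p62Δhep passed with DESeq2 (2.72), limma (1.63), no filter (2.73), all 12 libraries in 1 fit (2.64) and without Tsc1Δhep library 1 (2.18). The cause was not tested.

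Numbers of the libraries did not pair them: same-numbered libraries had correlations of deviations of -0.41, -0.51 and 0.04 in 1 table and -0.08, -0.08 and -0.13 in the other. Libraries with unlike numbers reached 0.53 (p62F/F library 2 with p62Δhep library 1) and 0.40 (p62F/F library 1 with p62Δhep library 2). The replicate block followed the numbers and does not take up that likeness. Under the replicate block, 0, 5 and 5 of the 10 members passed in the 2 comparisons and the difference, against 0, 6 and 6.

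DESeq2 called 1 member and 5 of 118 other listed genes in p62Δhep against p62F/F, where edgeR called 0. Of other listed genes, 57 of 106 passed in Tsc1/p62Δhep against Tsc1Δhep and 30 to 66 without single libraries (31, 30 and 35 without Tsc1/p62Δhep libraries 1, 2 and 3). Clec4f, Vsig4 and Cd5l passed in none of the alternatives and changed sign in several. In Tsc1/p62Δhep against Tsc1Δhep, library totals gave -0.030 for Clec4f and -0.25 for Cd5l, and Vsig4 was 0.74 with limma, 0.77 with the block and 0.85 without both Tsc1Δhep library 3 and Tsc1/p62Δhep library 1. Ranges without single libraries were -0.19 to 1.37 for Clec4f, -0.69 to 0.95 for Vsig4 and -0.41 to 1.24 for Cd5l. The difference between backgrounds was, with limma, the block and without both libraries, 0.96, 0.72 and 0.70 for Clec4f, 0.34, 0.30 and 0.41 for Vsig4 and 0.99, 0.76 and 0.85 for Cd5l, and for Marco 0.37 with the block. Without single libraries it was -0.75 to 0.83 for Clec4f, -1.12 to 0.51 for Vsig4, -0.79 to 0.87 for Cd5l and -0.69 to 0.98 for Marco. Trem2 in p62Δhep against p62F/F ran from -0.22 to 0.84 without single libraries.

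Library totals in place of TMM gave 576 higher and 3337 lower genes in Tsc1/p62Δhep against Tsc1Δhep, against 1167 and 1886 with TMM. Over all genes this comparison had 351 higher and 760 lower without Tsc1/p62Δhep library 1, 2686 and 3139 without Tsc1Δhep library 3, 649 and 1198 under the block and 2249 and 2952 with all 12 libraries in 1 fit. In p62Δhep against p62F/F DESeq2 called 33 higher and 136 lower genes, against 0 and 2. With a pseudocount of 1, log2 ratios moved to -4.27 for Trem2 to Clec4f, -3.61 for Trem2 to Csf1r and -3.26 for Itgam to Csf1r in Tsc1/p62Δhep and to -4.84 for Marco to Csf1r in Tsc1Δhep. In Tsc1Δhep library 1 Clec4f to Csf1r moved from -5.87 to -4.95 and Trem2 to Clec4f from 3.79 to 2.94. Itgam and Trem2 rest on 4 to 14 counts per library in Tsc1/p62Δhep, which limits the precision of their folds.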
